A study of Mus musculus with 12 samples.

Results

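YAP and TAZ, their DNA-binding TEAD partners and the VGLL proteins that share those partners were followed as transcripts in endothelial cells of the neonatal mouse lung. The set was fixed by gene symbol and holds 8 genes of the 24394 listed in all 12 tables: Yap1 and Wwtr1 (the gene of TAZ), Tead1, Tead2, Tead3 and Tead4, and Vgll3 and Vgll4. Every table has a row for each of the 8, although some transcripts were at 0 in some libraries. The C57BL/6J mice were 5 days old (postnatal day 5), the cells were isolated by flow cytometry, and each of 3 groups has 4 libraries. WT cells are labelled wild type; the labels state neither a Cre driver nor an inducer for them. L12-ECKO mice carried VE-cadherin-CreERT2, an inducible recombinase driven by an endothelial promoter, with floxed alleles of Lats1 and Lats2. L12YT-ECKO mice carried the same driver and the same 2 floxed kinase genes, and in addition floxed Yap and TAZ alleles. Both knockout groups therefore share the kinase deletion, no group lacks YAP and TAZ alone, and recombination is limited to cells in which the endothelial driver was active.

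YAP and TAZ do not bind DNA themselves. When the LATS kinases phosphorylate them they are held in the cytoplasm or degraded, and otherwise they enter the nucleus and activate genes through TEAD factors. VGLL proteins bind the same face of TEAD through a short conserved motif, and VGLL4 is known as an antagonist of YAP. In endothelial cells this pathway is known for its part in sprouting, junction remodelling and barrier maturation of growing vessels.

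Values are used as the authors deposited them, from libraries that sample the 3-prime ends of transcripts. They were taken to be on the log2 scale (a doubling adds 1), a base inferred from the values. Between 9850 and 13078 genes lay above 0 per library, and the lowest value above 0 ran from 0.067 to 4.981, so a value of 0 can mean that a transcript was not sampled. Some table rows are displaced in 5 libraries, namely replicates 2, 3 and 4 of L12-ECKO and replicates 3 and 4 of L12YT-ECKO. These rows hold none of the 8 genes, and what displaced them is not stated. The fits reported have no term for it, and the main values are also given for libraries with and without displaced rows. All 16 pan-endothelial markers lay above 0 in every library, with a log2 of their summed level of 18.4 to 18.44 in WT, 18.3 to 18.39 in L12-ECKO and 18.38 to 18.52 in L12YT-ECKO. Other cells were represented at lower levels. For 14 mesenchymal markers the log2 sum was 10.71 to 11.46 in WT, 9.6 to 10.73 in L12-ECKO and 10.1 to 11.1 in L12YT-ECKO, with Lum at 0 in all WT libraries. For 12 epithelial markers it was 11.18 to 13.35, 10.79 to 12.67 and 11.42 to 13.38 in the same order, with Foxj1 at 0 in WT. For 10 immune markers it was 6.979 to 11.65, 7.41 to 16.44 and 6.883 to 10.04. L12-ECKO replicate 1 was the highest of these. For 9 red cell and platelet markers it was 14.86 to 17.45, 14.36 to 16.47 and 15.08 to 16.94. For 15 hepatocyte markers it was 8.057 to 9.866, 9.117 to 12.39 and 8.516 to 11.17, with 8 of them, Ttr and Apob included, at 0 in all WT libraries and Afp at 0 in both knockout groups.

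Several of the 8 genes carry the core sequence bound by TEAD factors close to their own start sites. It is shown here because the data give the transcript levels of these genes after deletion of Lats1 and Lats2, with or without Yap and TAZ. Whether TEAD factors regulate these genes was not tested. RefSeq promoter windows on GRCm38.p6 were found for 6 of the 8 genes (Tead1 and Tead4 had none in the table used). Within the 250 bases before a start, GGAATG or its reverse complement CATTCC, searched on both strands, was present for 5 of these 6 genes. The exception was Tead2. Over all genes of the table the share was 14.4%, and over all windows of this length 12.6%. A match describes the letters only and does not show that a factor is bound. The stretches below are read 5′ to 3′ on the strand of the gene with 40 bases on either side, and capitals mark the 6-base core. They lie at chr3:57576001-57576086 (minus strand, 136 bases before the first start of Wwtr1), chr9:8004692-8004777 (minus, 141 bases before that of Yap1), chr6:114969240-114969325 (minus, 82 bases before a RefSeq start of Vgll4), chr16:65815086-65815171 (plus, 63 bases before that of Vgll3) and chr17:28350942-28351027 (minus, 182 bases before the first start of Tead3). The Vgll4 stretch lies inside the gene as GENCODE places it (114860628 to 114969994).
Wwtr1: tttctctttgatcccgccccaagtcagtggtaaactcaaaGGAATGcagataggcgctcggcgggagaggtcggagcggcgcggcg
Yap1: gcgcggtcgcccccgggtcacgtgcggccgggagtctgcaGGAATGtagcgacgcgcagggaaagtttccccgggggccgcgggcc
Vgll4: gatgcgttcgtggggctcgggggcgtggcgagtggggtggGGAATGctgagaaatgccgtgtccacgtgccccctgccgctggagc
Vgll3: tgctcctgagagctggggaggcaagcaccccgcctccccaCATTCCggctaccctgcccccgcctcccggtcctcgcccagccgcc
Tead3: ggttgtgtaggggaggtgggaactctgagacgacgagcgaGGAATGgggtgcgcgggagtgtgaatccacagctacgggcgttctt
In the first 3 of these and in Tead3 the core reads GGAATG along the gene, and in Vgll3 it reads CATTCC.

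The co-activators were the 2 members deleted in L12YT-ECKO, and their transcripts were lowest there. Wwtr1 lies on the minus strand of chromosome 3 between 57455649 and 57575910. WT libraries stood at 12.007, 11.556, 11.842 and 11.849, L12-ECKO libraries at 11.565, 11.556, 11.491 and 10.112, and L12YT-ECKO libraries at 8.156, 8.716, 9.006 and 9.371 (replicates 1 to 4 in each case). Every L12YT-ECKO library lay below every library of the other groups. L12-ECKO overlapped with WT, sharing the value 11.556, and its replicate 4 stood apart below the rest. Yap1 lies on the minus strand of chromosome 9 between 7931999 and 8004596. WT libraries stood at 9.881, 10.018, 9.814 and 9.461, L12-ECKO libraries at 10.372, 9.707, 10.449 and 9.353, and L12YT-ECKO libraries at 7.96, 8.01, 6.694 and 8.204. Here too the L12YT-ECKO libraries lay below all others, while WT and L12-ECKO overlapped. In these bulk samples, fewer cells holding a transcript and less of it per cell cannot be told apart.

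**Figure D1:**
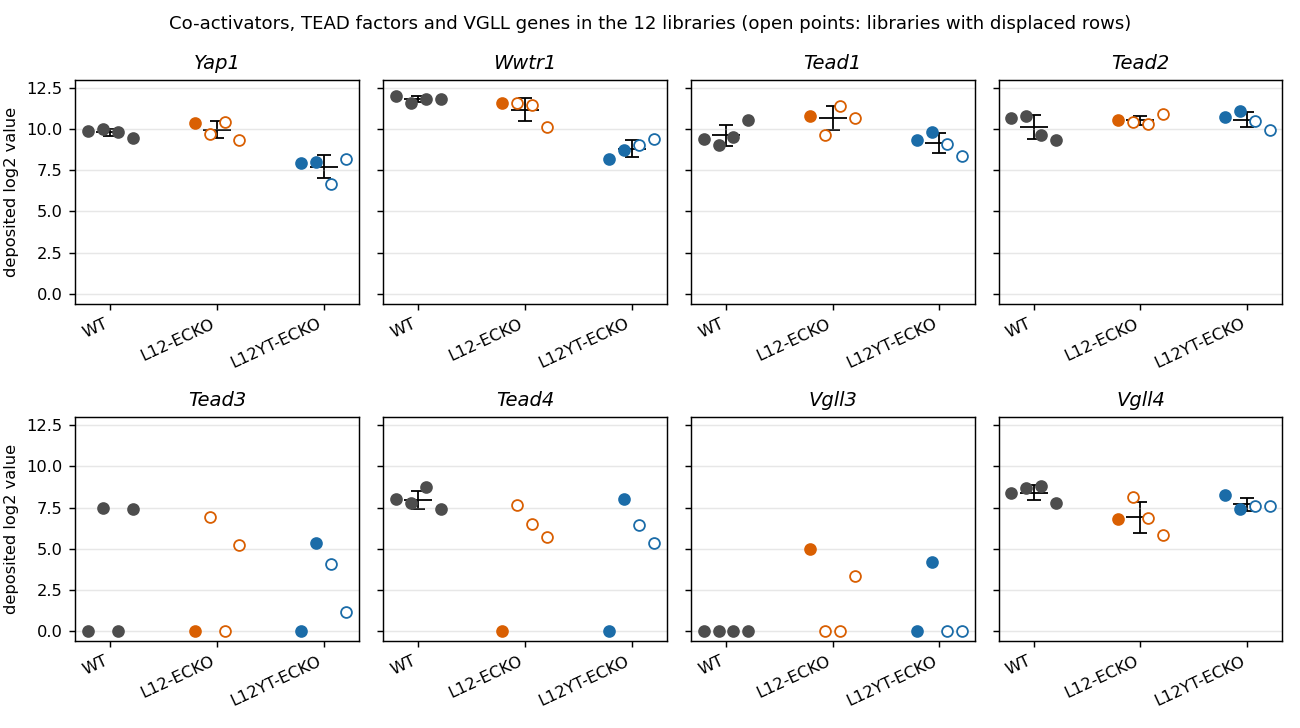
Deposited log2 value (vertical axis) of the 8 genes in each of the 12 libraries, by group; points are libraries in the order of replicates 1 to 4, open points are libraries with displaced rows, and bars give the mean ± SD where all 4 libraries of a group lie above 0. The 4 L12YT-ECKO points of Yap1 (6.694 to 8.204) and of Wwtr1 (8.156 to 9.371) lie below all others, whereas Tead3, Tead4 and Vgll3 are at 0 in some libraries.

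How far both co-activators were lost was read from L12YT-ECKO against WT. Limma, fitted over all genes, called 1 of the 7 members tested, Wwtr1, beside 0.0086% of all 11633 genes (1 gene, the same one). Wwtr1 fell by 3.001 (SE 0.35, limma adjusted p = 0.00066), which leaves 12.5% of the WT level with a 95% confidence interval of 7.51% to 20.8%. In single libraries 7.93%, 11.7%, 14.3% and 18.4% of the WT mean remained in replicates 1 to 4. Yap1 differed by -2.08 (SE 0.406) and did not pass over all genes (limma adjusted p = 0.184, unadjusted p = 6.11e-05). Its level was 23.7% of WT, with an interval of 13.2% to 42.7%, and 28.1%, 29.05%, 11.7% and 33.2% in replicates 1 to 4. For these 2 of the 7 tested members the groups did not overlap, as against 4.7% of all genes, and the same 2 had an unadjusted p under 0.05, as against 6.23%. In the 7 libraries without displaced rows Wwtr1 differed by -3.38 (limma adjusted p = 0.00107) and Yap1 by -1.81. The summed level of the 16 pan-endothelial markers overlapped between both groups. Which exons are floxed is not stated in the labels. A transcript that had lost those exons but kept its 3-prime end would still be counted, and its part in the remaining level was not tested.

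**Figure D2:**
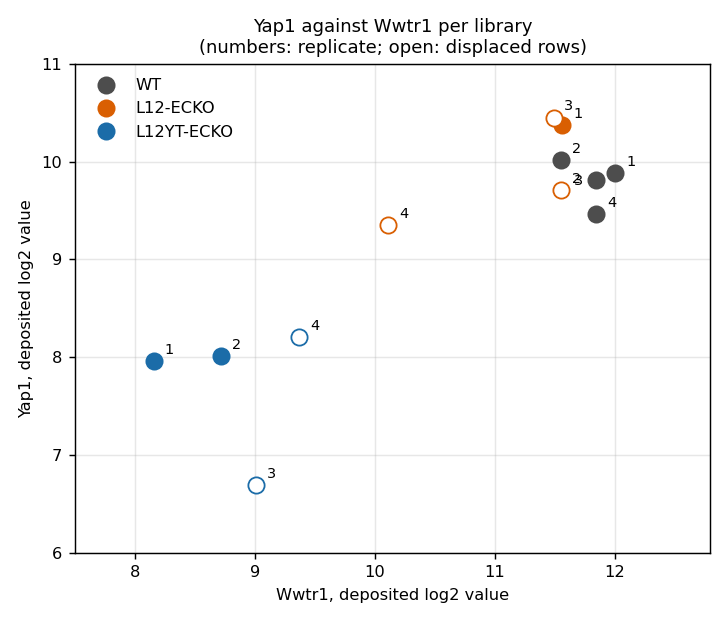
Deposited log2 value of Yap1 (vertical axis) against that of Wwtr1 (horizontal axis) in each library, coloured by group, with the replicate number beside each point and open points for libraries with displaced rows. The L12YT-ECKO libraries occupy the lower left (Wwtr1 at 8.156 to 9.371), and L12-ECKO replicate 4 lies between them and the other 7 libraries, at 10.112 for Wwtr1 and 9.353 for Yap1.

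Whether the 2 co-activators differed from WT by unequal amounts in L12YT-ECKO was tested on their difference within a library. Wwtr1 exceeded Yap1 by 2.126, 1.538, 2.028 and 2.388 in WT, a mean of 2.02 ± 0.36 (SD, n = 4). In L12YT-ECKO it did so by 0.196, 0.706, 2.312 and 1.167, a mean of 1.10 ± 0.90 (SD, n = 4). The gap was smaller in 3 of 4 L12YT-ECKO libraries than in any WT library, and replicate 3, whose Yap1 value was the lowest measured, lay within the WT range. The means differed by -0.92, and the two-sided exact permutation test over 70 assignments gave p = 0.114, where the smallest possible p is 0.0286. Leaving out L12YT-ECKO replicate 3 gave -1.33 and an exact p = 0.0286, and leaving out each other library gave an exact p of 0.114 to 0.229. The libraries without displaced rows, 2 of L12YT-ECKO and 4 of WT, gave -1.57 with an exact p = 0.0667. With so few libraries no smaller p was possible, so that set could not have passed 0.05. In L12-ECKO the gap was 1.193, 1.849, 1.042 and 0.759, a mean of 1.21 ± 0.46 (SD, n = 4), and this was not tested against WT. L12YT-ECKO differs from WT in the kinase deletion too, so the permutation test cannot tie a smaller gap to the deletion of Yap and TAZ. Against L12-ECKO, Wwtr1 differed by -2.37 and Yap1 by -2.25 in L12YT-ECKO.

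Both knockouts carry the kinase deletion, so L12YT-ECKO against L12-ECKO differs by design in the additional deletion of Yap and TAZ. The libraries also differ in sex (1 and 3 of 4 female) and in displaced rows (2 and 3 of 4). Limma called 2 of the 7 tested members, both lower, beside 0.0688% of all genes. Wwtr1 fell by 2.37 (SE 0.35, limma adjusted p = 0.00521) and Yap1 fell by 2.25 (SE 0.406, limma adjusted p = 0.0388), to 19.4% (95% interval 11.7% to 32.2%) and 20.97% (11.6% to 37.8%) of L12-ECKO. The groups did not overlap for these 2 members, as against 4.38% of all genes, and 3 members (with Tead1) had an unadjusted p under 0.05, as against 6.08%. Wwtr1 was called without each of the 12 libraries in turn. Yap1 lost its call, with differences of -2.35 to -1.91, without WT replicates 1, 2 or 3, L12-ECKO replicates 1, 2 or 3 or L12YT-ECKO replicates 1, 2 or 3 (limma adjusted p 0.0525 to 0.144). The difference of Yap1 was -2.39 in the libraries without displaced rows and -2.39 in those with them, and that of Wwtr1 was -3.13 and -1.86. The latter set holds 2 L12YT-ECKO and 3 L12-ECKO libraries, and there neither was called (limma adjusted p = 0.79 for Yap1 and 0.823 for Wwtr1). In the former set, with 1 L12-ECKO library, Yap1 was not called either (limma adjusted p = 0.267).

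L12-ECKO against WT asks how these genes stand after deletion of the kinases that restrain YAP and TAZ. Limma called 0 of the 7 tested members, beside 0.481% of all genes (0.292% higher and 0.189% lower, or 34 higher of 56, against 50 higher of 56 once values were centred on the pan-endothelial markers). At an unadjusted p under 0.05 stood 2 members, Tead1 and Vgll4, as against 12.2% of all genes. No tested member was free of overlap between these groups, where 6.33% of all genes were. Wwtr1 differed by -0.63 (95% interval -1.37 to 0.10, limma adjusted p = 0.474), and by -0.28 without L12-ECKO replicate 4. Yap1 differed by 0.18 (-0.67 to 1.03, limma adjusted p = 0.891), by 0.58 without the libraries with displaced rows, by 0.57 with sex as covariate and by 0.02 to 0.38 with single libraries left out (lowest without L12-ECKO replicate 3, highest without its replicate 4). The value of 0.58 rests on L12-ECKO replicate 1 alone, which is also the only male library of its group. That library had the highest immune marker sum of all libraries (log2 16.44), whose part in the value was not tested. On the linear scale the first interval runs from 62.7% to 204% of the WT level of Yap1.

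**Figure D3:**
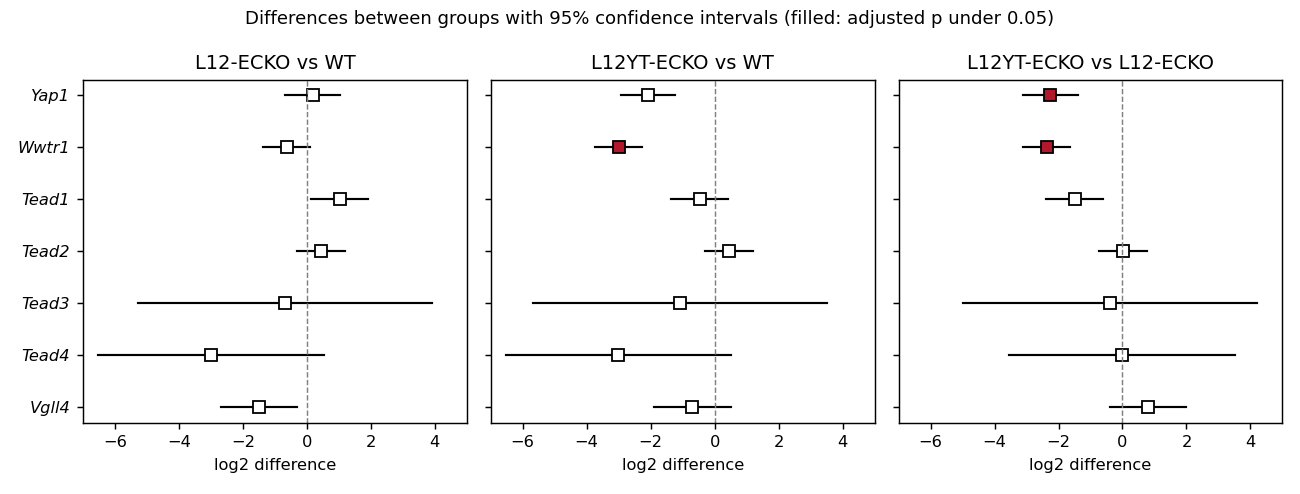
Log2 difference (horizontal axis) of the 7 tested genes in the 3 comparisons, with 95% confidence intervals from limma; filled squares have an adjusted p under 0.05. Wwtr1 is filled in both comparisons with L12YT-ECKO and Yap1 in that with L12-ECKO, and the intervals of Tead3 and Tead4 span several log2 units.

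Tead1 and Tead2 were the TEAD factors with the higher levels, and both were above 0 in every library. Tead1 is on the plus strand of chromosome 7 from 112679318 to 112906807. WT libraries held it at 9.398, 9.012, 9.549 and 10.537, L12-ECKO libraries at 10.824, 9.667, 11.422 and 10.673, and L12YT-ECKO libraries at 9.343, 9.821, 9.102 and 8.349. L12-ECKO libraries were the highest as a group, although its replicate 2 lay below WT replicate 4 and below L12YT-ECKO replicate 2. Tead1 differed by 1.02 between L12-ECKO and WT (SE 0.428, limma adjusted p = 0.343) and by -1.49 between L12YT-ECKO and L12-ECKO (SE 0.428, limma adjusted p = 0.418, unadjusted p = 0.00243). Neither passed over all genes, and both kept their sign in all alternatives run, over ranges of 0.76 to 1.47 and -1.86 to -1.22. The L12-ECKO libraries enter both comparisons, so the opposite signs are not independent. Between L12YT-ECKO and WT it differed by -0.47 (limma adjusted p = 0.883). The mesenchymal markers had a lower summed level in L12-ECKO than in WT but for 1 library (10.73 in L12-ECKO replicate 1 against 10.71 in WT replicate 4). Their part in the Tead1 values was not tested.

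Tead2, also on chromosome 7 (plus strand, 45215753 to 45233644), stood at 10.679, 10.825, 9.655 and 9.31 among WT libraries, at 10.541, 10.423, 10.299 and 10.934 among L12-ECKO libraries, and at 10.711, 11.104, 10.5 and 9.974 among L12YT-ECKO libraries. The 3 groups overlapped, and WT had both a high and a low pair of libraries. It differed by 0.43 and 0.46 from WT in L12-ECKO and L12YT-ECKO, with intervals of -0.32 to 1.19 and -0.30 to 1.21 (limma adjusted p = 0.65 and 0.869). The difference between both knockouts was 0.02, with an interval of -0.73 to 0.78. Cd37, an immune gene on the other strand, overlaps the 3-prime end of Tead2. Whether counting used strand is not stated, so reads of both cannot be told apart there, and Cd37 itself was listed at 0 to 7.641.

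Tead3 in all groups and Tead4 in both knockout groups were at 0 in some libraries, so their values are given by library. Tead3 (chromosome 17, minus strand, 28331671 to 28350817) was listed at 0, 7.452, 0 and 7.426 for WT, at 0, 6.93, 0 and 5.198 for L12-ECKO, and at 0, 5.351, 4.042 and 1.162 for L12YT-ECKO. It was above 0 in 7 of 12 libraries and in at least 2 of each group. Tead4 (chromosome 6, minus strand, 128224288 to 128300823) was listed at 8.017, 7.756, 8.723 and 7.39 for WT, at 0, 7.656, 6.491 and 5.731 for L12-ECKO, and at 0, 8.023, 6.437 and 5.371 for L12YT-ECKO. All WT libraries held it, and in each knockout group replicate 1 was at 0 and only replicate 2 reached the WT range. The fitted difference of Tead4 from WT was -3.002 in L12-ECKO (SE 1.68, limma adjusted p = 0.48) and -3.01 in L12YT-ECKO (SE 1.68, limma adjusted p = 0.817). Its size varied with the libraries: without replicate 1 of the group concerned, at 0, these values were -1.35 and -1.36. With the displaced-row covariate they were -5.94 and -4.97, and in libraries without displaced rows -7.97 (1 L12-ECKO library, at 0) and -3.96.

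Set against each other on the linear scale, the TEAD genes made up different shares of their summed level in different libraries. These are shares of normalized 3-prime tag values, which were not divided by transcript length here because the kit tags a transcript near its end. Tead1 accounted for 26.2%, 18.97%, 37.9% and 60.4% of it among WT libraries, for 54.9%, 32.4%, 67.03% and 44.4% among L12-ECKO libraries, and for 27.9%, 26.6%, 26.2% and 23.7% among L12YT-ECKO libraries. Its share was spread widely in WT and narrowly in L12YT-ECKO, where Tead2 supplied 64.6% to 73.1%. Every L12-ECKO library had a larger Tead1 share than every L12YT-ECKO library. The log2 of the summed TEAD level was 10.95 to 11.41 in WT, 11.29 to 12 in L12-ECKO and 10.43 to 11.73 in L12YT-ECKO, with overlap between all groups. These shares were computed after the values were seen and were not tested.

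**Figure D4:**
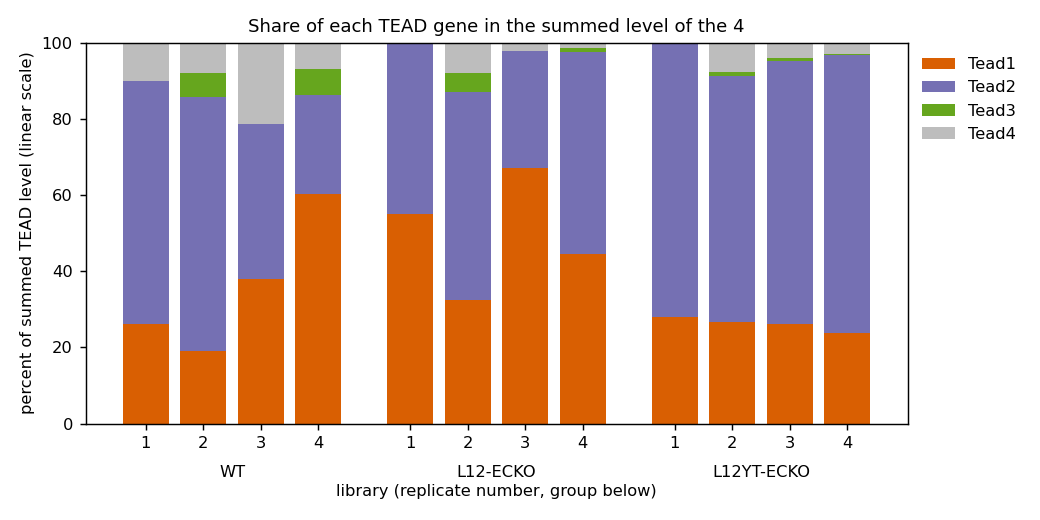
Share of Tead1, Tead2, Tead3 and Tead4 (stacked, in percent of their summed linear level, vertical axis) in each library, ordered by group and replicate. Tead1 takes 32.4% to 67.03% in the L12-ECKO libraries and 23.7% to 27.9% in the L12YT-ECKO libraries, with WT spread from 18.97% to 60.4%.

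Of the VGLL genes, Vgll4 was the one measured in every library. It lies on chromosome 6 (minus strand, 114860628 to 114969994) and stood at 8.362, 8.706, 8.834 and 7.756 among WT libraries, at 6.829, 8.137, 6.88 and 5.821 among L12-ECKO libraries, and at 8.287, 7.392, 7.602 and 7.58 among L12YT-ECKO libraries. In L12-ECKO 3 of 4 libraries lay below all WT and all L12YT-ECKO libraries, and replicate 2 lay among them. Vgll4 differed by -1.498 between L12-ECKO and WT (95% interval -2.69 to -0.30, limma adjusted p = 0.284), by -0.70 between L12YT-ECKO and WT (limma adjusted p = 0.872) and by 0.80 between both knockouts (limma adjusted p = 0.914). None passed over all genes. The difference from WT in L12-ECKO ran from -1.90 to -1.13 over all alternatives. The mesenchymal sums of L12-ECKO were 10.73, 10.64, 10.16 and 9.6 in replicates 1 to 4. Replicate 1, also low in Vgll4, thus had the highest of that group. In L12YT-ECKO the sums were 11.1, 11.09, 10.14 and 10.1. The part of other cells in the Vgll4 values was not tested.

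Read together per library, Tead1 exceeded Vgll4 by 1.036, 0.306, 0.715 and 2.781 for WT, by 3.995, 1.53, 4.542 and 4.852 for L12-ECKO, and by 1.056, 2.429, 1.5 and 0.769 for L12YT-ECKO. The group means were 1.21 ± 1.09, 3.73 ± 1.51 and 1.44 ± 0.73 (SD, n = 4 each). L12-ECKO replicates 1, 3 and 4 lay above all 8 other-group libraries and replicate 2 lay within their range. This pair was picked after its values were seen, so no test is given.

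Vgll3, on chromosome 16 (plus strand, 65815257 to 65866368), was listed at 0 in all WT libraries, at 4.97, 0, 0 and 3.336 for L12-ECKO, and at 0, 4.17, 0 and 0 for L12YT-ECKO. With 3 of 12 libraries above 0 it did not pass the filter on low values and was the 1 member not tested. The lowest value above 0 of any gene was 3.009 to 3.162 in the WT libraries, so a level below that could not have shown there.

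The order of levels within a group also changed at the top. In WT the means ran from Wwtr1 (11.81) through Tead2 (10.12), Yap1 (9.79), Tead1 (9.62), Vgll4 (8.41) and Tead4 (7.97) down to Tead3 and Vgll3. Wwtr1 lay above Tead2 in 4 of 4 WT libraries, by 1.696 ± 0.82 (SD), whereas Tead2 and Yap1 (0.32 ± 0.55) and Yap1 and Tead1 (0.17 ± 0.89) did not differ beyond their spread. In L12-ECKO Wwtr1 (11.18), Tead1 (10.65), Tead2 (10.55) and Yap1 (9.97) each differed from the next by less than the spread between libraries. In L12YT-ECKO Tead2 (10.57) came first in 4 of 4 libraries, 1.42 ± 0.15 above Tead1 (9.15), with Wwtr1 (8.81) next and Yap1 (7.72) level with Vgll4 (7.72). This order is on the log2 scale of tag values, and the labels do not say whether the authors divided by length.

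The wider pathway was read from 3 lists, of which Lats2, Amotl2 and Ptpn14 are on more than 1. Of 22 target genes of YAP and TAZ 18 were tested. In L12-ECKO versus WT limma called 5 higher and 0 lower, beside 0.292% of all genes called higher, and the list median was 1.37 against -0.02 over all genes. The genes of the matricellular proteins CTGF and CYR61 (Ctgf and Cyr61) differed by 6.18 and 4.22, the transmembrane gene Crim1 by 2.01, the IGF-binding protein gene Igfbp3 by 3.99 and the growth factor gene Tgfb2 by 1.96. In L12YT-ECKO versus L12-ECKO limma called 3 lower (Ctgf, Cyr61 and Crim1), beside 0.0602% of all genes, with a median of -0.90 against 0.09. The L12-ECKO libraries enter this comparison and that with WT, so the opposite signs are not independent. The list was also chosen with earlier results of these data known. In L12YT-ECKO versus WT limma called 0 of the 18 targets, beside 0.0086% of all genes, with a median of 0.32 against 0.08. Ctgf was the 1 target at an unadjusted p under 0.05, beside 6.23% of all genes. It still lay 1.95 above WT (SE 0.617, limma adjusted p = 0.673), and Cyr61 and Crim1 differed by 0.75 and 0.43.

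Proteins that bind YAP or TAZ gave 0 calls among 18 tested in each of the 3 comparisons, taken in the order L12-ECKO versus WT, L12YT-ECKO versus WT and L12YT-ECKO versus L12-ECKO (0.481%, 0.0086% and 0.0688% of all genes were called), with medians of -0.05, 0.01 and 0.04. At an unadjusted p under 0.05 stood 2, 2 and 1 of them, beside 12.2%, 6.23% and 6.08% of all genes. Those with the smallest p in L12-ECKO versus WT were the junction scaffold gene Tjp1, which differed by -0.80 (limma adjusted p = 0.223), Amotl2, of the angiomotin family that holds YAP at junctions, by 1.21 (limma adjusted p = 0.294), and the WW-domain binding gene Wbp2 by 0.93 (limma adjusted p = 0.42). The Hippo kinase cascade gave 0 calls among 16 tested in each comparison, with medians of 0.10, 0.24 and 0.11, and 2, 0 and 2 genes at an unadjusted p under 0.05, against the same shares of all genes. In L12-ECKO versus WT the kinase genes Stk4 and Stk3, upstream of LATS, differed by -1.49 (limma adjusted p = 0.146) and -1.26 (limma adjusted p = 0.422). Lats2, a floxed gene and also on the target list, differed by 0.998 (limma adjusted p = 0.26), and Lats1, the other floxed kinase gene, by -2.70 (SE 1.87, limma adjusted p = 0.562). In L12YT-ECKO, which shares the kinase deletion, Lats1 differed from WT by -0.68 (SE 1.87, limma adjusted p = 0.964). Lats2 differed there by 0.04 (limma adjusted p = 0.993). Lats1 was named after its values were seen. The tags read may lie outside the deleted parts.

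**Figure D5:**
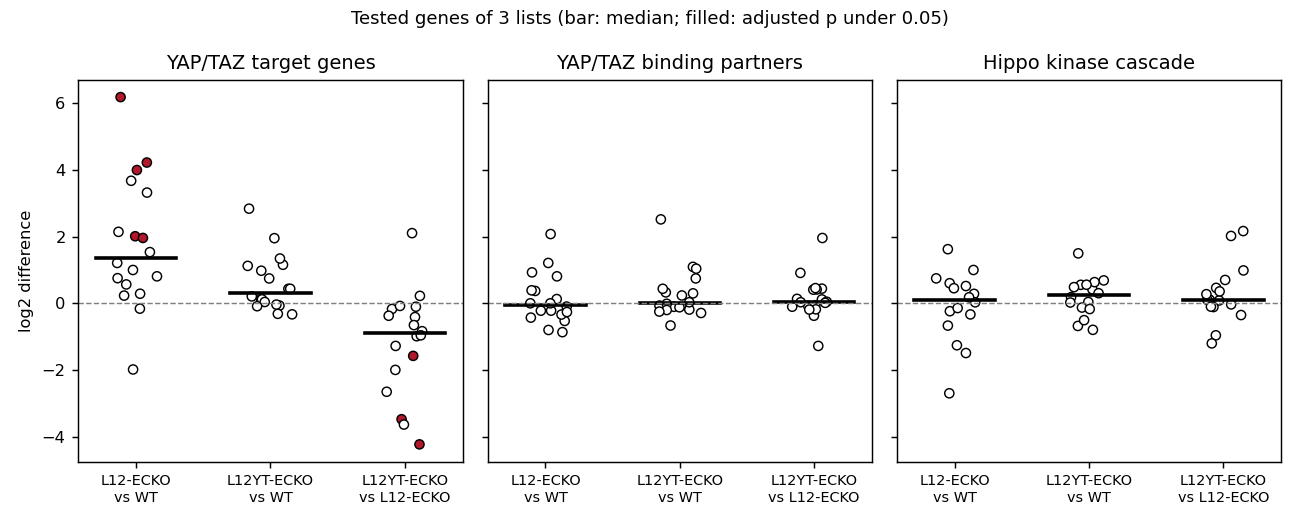
Log2 difference (vertical axis) of each tested gene of the 3 lists in the 3 comparisons; bars are list medians and filled points have an adjusted p under 0.05. Filled points occur only in the target list, 5 above 0 in L12-ECKO versus WT and 3 below 0 in L12YT-ECKO versus L12-ECKO, while the binding partners and the kinase cascade have medians of -0.05 to 0.24.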

How the data were processed

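Sorted lung endothelial cells gave 12 libraries of 3-prime RNA sequencing (Lexogen Quant-Seq from total RNA, per the labels' protocols). The submitters' processing notes name edgeR, Bowtie2 and the build mm10, without roles or versions. The deposited tables hold 1 value per gene, and the log2 base was inferred from the values. That the authors quantile normalized them was inferred, since at each of the 5000 highest ranks the 12 values lay within 0.168. Depth is unknown. The labels do not tie libraries to separate mice, so p-values measure only the spread between these libraries, which may be technical.

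From the 24421 genes per table, 27 under date-like names in 2 tables and 37 rows displaced or exchanged in 5 tables were left out. The sex markers (Xist, Ddx3y) marked as female 3 libraries of L12-ECKO and 1 in each other group. Within L12-ECKO these are the ones with displaced rows. Genes with a CPM of at least 1 (from values raised off the log2 scale) in at least 4 libraries were tested: 11633. limma 3.58.1 (R 4.3.3, statmod 1.5.0) fitted group means over all 12 libraries with a trended, robust prior. A gene is called where its p-value, Benjamini-Hochberg adjusted over the 11633 genes, is under 0.05. The alternatives tried were other filters, priors, covariates, scalings, library sets and a replicate block. On simulated L12-ECKO versus WT data over 11633 genes, 36 of 100 genes changed by 2 (log2) and 60 of 100 changed by 4 were recovered. Positions are from GENCODE vM21 (GRCm38). Members and gene lists were chosen with earlier results of these data known. The genes named are the members, Vgll1 and Vgll2, of each list its called genes and the 3 with the smallest p in L12-ECKO versus WT, and the 3 genes most like Wwtr1 and Yap1.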

Additional observations from a re-analysis of the deposited data

Results flagged for a closer look

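In 3 of the 23 groups of 4 libraries checked, a member had a library set apart from the others. Its gap to the nearest other library, divided by the range of the group, exceeded Dixon's 95% critical value. Chance alone does so in about 5% of groups, so such gaps can arise by chance among 23 groups. The 3 include Vgll3, whose other values were tied. Yap1 stood at 6.694 in L12YT-ECKO replicate 3, below 7.96 to 8.204 in the other libraries of that group. Without it Yap1 differed from L12-ECKO by -1.91. Wwtr1 stood at 10.112 in L12-ECKO replicate 4, below 11.491 to 11.565 in its group. That library also had the lowest Yap1 (9.353) and Vgll4 (5.821) values of L12-ECKO and the lowest pan-endothelial sum (18.3). Vgll3 stood at 4.17 in L12YT-ECKO replicate 2 while the other libraries of the group listed it at 0; with 3 tied values the ratio is fixed whatever the other value is, so this gap is no sign of an outlier.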

How the results depend on the processing

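Over 21 member differences, 529 alternative values were computed: 480 kept their direction and side of the threshold, 18 were weaker, 31 reversed (in 5 results of Tead2, Tead3 and Tead4 that were not called) and 0 became called. Centring on the pan-endothelial markers moved the median of all genes in L12-ECKO versus WT from -0.02 to 0.16. Limma called 56 genes in L12-ECKO versus WT, 7 without a trend in the prior, 30 with only the 2 groups, 15 with displaced rows or with sex as covariate and 24 with array weights (15 to 80 when single libraries were left out). In L12YT-ECKO versus WT it called 1 gene and 1 member, 0 of either without a trend, where Wwtr1 differed by -3.001 (limma adjusted p = 0.116), and 1 to 3 genes with single libraries left out. In L12YT-ECKO versus L12-ECKO it called 8 genes, 3 without a trend, 5 with only the 2 groups or with sex as covariate, 14 in libraries without displaced rows, 0 in those with them and 23 with array weights (4 to 9 with single libraries left out). Of the members it called 2 there, 0 without a trend or in libraries with displaced rows, 1 with no filter on low values, only the 2 groups, the replicate block or libraries without displaced rows, and 1 to 2 with single libraries left out. Wwtr1 was not called there without a trend (-2.37, limma adjusted p = 0.199) or in libraries with displaced rows (-1.86, 0.823). Yap1 was not called without the filter, without a trend, with only the 2 groups or with the replicate block (-2.25 in each, limma adjusted p = 0.111, 0.241, 0.117 and 0.0916), nor in libraries without (-2.387) or with (-2.3873) displaced rows; with single libraries left out it ran from -2.46 to -1.91. The replicate block changed no other member's call. Replicate numbers did not pair the libraries: same-numbered deviations correlated at -0.046 to 0.058, and 4 of 12 libraries correlated best with their own number. Tead2 in the same comparison (0.02) was -0.072 with the displaced-row covariate, -0.315 in libraries with displaced rows, -0.17 with sex, -0.11 with array weights, -0.0045 centred on the median, -0.15 centred on the pan-endothelial markers and -0.15 to 0.22 with single libraries left out. Tead3 (-0.39) was 0.029 with the displaced-row covariate, 2.68 in libraries without displaced rows, 1.42 with sex and -1.40 to 0.91 with single libraries left out. Against WT, with single libraries left out, Tead3 ran from -1.99 to 0.56 in L12-ECKO and from -2.32 to 0.16 in L12YT-ECKO. In L12-ECKO against WT it was -3.72 in libraries without displaced rows, -2.497 with sex and -1.96 with the displaced-row covariate. Tead4 between both knockouts (-0.01) was 0.97 with the displaced-row covariate, 4.01 in libraries without displaced rows, 1.29 with sex, 1.12 with array weights and -1.67 to 1.64 with single libraries left out. The difference in the gap between Wwtr1 and Yap1 ran from -1.33 to -0.63 with single libraries left out and was -1.57 in libraries without displaced rows. The cause of these shifts was not tested. With displaced rows alone only the comparison of both knockouts could be fitted, and a filter on a mean of at least 5 left out Tead3. Depth is unknown, so a 0 may be an absence or a limit of sampling.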

Other observations

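The remaining VGLL family genes were close to absent from these libraries. Vgll1 was listed at 0 in all 12, and Vgll2 was above 0 in L12-ECKO replicate 2 (2.294) and L12YT-ECKO replicate 3 (0.817).

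Genes whose library values followed those of the co-activators most closely were looked for among 8800 tested genes with a mean of at least 5, leaving out the 8 members. Likeness was the root mean square difference between values centred on each gene's mean, over 12 libraries. For Wwtr1 these were Slc25a25, a mitochondrial carrier gene (0.833), Ttc16 (0.841) and the xanthine dehydrogenase gene Xdh (0.85), as against a median of 1.62 over all candidates. Their differences between L12YT-ECKO and WT were -1.50, -2.12 and -1.88, and none was called (limma adjusted p 0.562 to 0.826). Yap1 itself was nearer to Wwtr1 (0.677) than any of them. For Yap1 these were the centriole gene Cntrl (0.601), Zcchc9 (0.636) and Mplkip (0.717), as against a median of 1.41, with differences of -1.42, -1.39 and -1.47, none called. Wwtr1 (0.677) was nearer to Yap1 than Mplkip and farther than the other two. They are the nearest of many candidates and are given as a description.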
